A study of Rattus norvegicus with 9 samples.

Results

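The epithelial sodium channel and the WNK kinases set how much sodium the last segments of the kidney tubule take back. A set of 10 genes of this system was examined in rat kidney RNA, chosen by symbol: the channel subunits Scnn1a, Scnn1b and Scnn1g, the receptor Nr3c2, and the regulators Sgk1, Nedd4l, Wnk1, Wnk4, Stk39 and Klhl3. The gene table held 36267 features, and 9 of the 10 symbols had a row, each of them 1 row. Klhl3, the adaptor through which a cullin 3 ligase marks WNK kinases for degradation, had no row under that symbol and was not analysed here. All 9 genes passed the filter on low values, at least 1 CPM in at least 3 libraries, where CPM is the read count scaled so that each library sums to 1000000.

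The epithelial sodium channel (ENaC) sits in the apical membrane of connecting tubule and principal cells and is built from an alpha, a beta and a gamma subunit. Aldosterone acts through the mineralocorticoid receptor Nr3c2 to raise the kinase Sgk1, which holds back Nedd4l, the ubiquitin ligase that removes the channel from the membrane. In the neighbouring distal convoluted tubule, Wnk1 and Wnk4 switch on the kinases Stk39 (SPAK) and Oxsr1, which phosphorylate the thiazide-sensitive sodium-chloride cotransporter Slc12a3.

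The stretches before the annotated starts of 4 genes are shown because Scnn1b and Scnn1g fell together and Wnk1 and Wnk4 moved in opposite directions. They come from RefSeq on the build GRCr8, read 5′ to 3′ on the strand of the gene, with capitals marking the GC box core GGGCGG on either strand. Scnn1g and Scnn1b are direct neighbours on that assembly, with 0 annotated genes between them.
Scnn1g (chr1:185735975-185736224, plus strand): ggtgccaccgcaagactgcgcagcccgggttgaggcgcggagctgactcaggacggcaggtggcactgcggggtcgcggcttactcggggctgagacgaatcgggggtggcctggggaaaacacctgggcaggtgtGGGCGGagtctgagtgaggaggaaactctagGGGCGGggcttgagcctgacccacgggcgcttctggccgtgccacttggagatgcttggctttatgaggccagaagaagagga
Scnn1b (chr1:185861126-185861325, plus strand): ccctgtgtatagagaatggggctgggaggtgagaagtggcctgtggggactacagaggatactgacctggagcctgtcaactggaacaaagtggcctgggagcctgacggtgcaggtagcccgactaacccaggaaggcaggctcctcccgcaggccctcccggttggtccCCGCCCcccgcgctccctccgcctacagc
Wnk1 (chr4:154926148-154926397, minus strand): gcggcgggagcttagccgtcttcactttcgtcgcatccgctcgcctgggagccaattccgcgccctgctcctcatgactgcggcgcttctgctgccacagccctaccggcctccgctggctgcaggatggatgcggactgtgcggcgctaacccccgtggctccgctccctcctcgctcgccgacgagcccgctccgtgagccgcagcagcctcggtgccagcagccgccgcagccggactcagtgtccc
Wnk4 (chr10:86702708-86702827, plus strand): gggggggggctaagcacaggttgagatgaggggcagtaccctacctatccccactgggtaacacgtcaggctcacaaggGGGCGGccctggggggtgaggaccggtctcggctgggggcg
In windows of 300 bases around the start, GGGCGG was found 2 times for Scnn1g, 1 time for Scnn1b, 4 times for Wnk4 and 0 times for Wnk1, against 33.1% of all 33469 windows with at least 1 match. The steroid receptor half-element AGAACA, searched on both strands, was found in none of these 4 windows and in 20.7% of all windows. The motifs share no overlap, and a match describes letters only. For Wnk1 only 1 annotated start was searched, and the start of its short kidney-specific transcript, described below, was not looked for.

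The kidneys came from 9 rats of 180 to 200 g in 3 groups of 3, and neither strain, sex, age nor the time of removal after contrast is given in the sources used here. Control rats had no treatment. Rats with contrast-induced acute kidney injury (CIAKI) received the loop diuretic furosemide by stomach tube at 200 mg/kg, 6 h of dehydration and then iopromide, an iodinated contrast medium of 370 mg I/mL, through the tail vein at 15 mL/kg. In the icariin group the same protocol followed 3 daily oral doses of 100 mg/kg icariin, a plant flavonoid glycoside. No group had furosemide and dehydration without contrast, or icariin without injury, so the parts of the protocol cannot be told apart. Libraries held 64380578 to 90398405 reads, and the 9 genes held between 662 reads (Nr3c2 in CIAKI 3) and 108972 reads (Wnk1) in a library.

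Whole kidney holds every segment, and in bulk RNA fewer cells of a type and less RNA per cell cannot be told apart. All 10 markers of principal cells had a row, and their summed level was 730 to 797 CPM in control, 803 to 1233 CPM in CIAKI and 964 to 1317 CPM in icariin kidneys. In CIAKI against control 3 of the 10 were higher, 2 lower and 5 not called, where 20.8% of all genes tested were called higher and 20.5% lower. The water channel genes Aqp2 (log2 fold change 0.90, adjusted p = 0.0064), Aqp3 (0.59) and Aqp4 (1.86) rose, and Avpr2 (-1.31) and Kcne1 (-1.73) fell. Of 5 connecting tubule markers 4 had a row, summing to 774 to 812, 294 to 379 and 346 to 421 CPM in control, CIAKI and icariin kidneys. All 6 distal convoluted tubule markers had a row, with Pvalb at 0 in every library, and summed to 810 to 964, 605 to 667 and 611 to 729 CPM. Proximal tubule markers, 9 of 9 in the table, summed to 21044 to 25055, 8893 to 11934 and 20862 to 22755 CPM. Adrenal cortex markers, 4 of 7 in the table, stayed at 0.466 to 2.13 CPM in all libraries, while urothelial markers reached 25.9 CPM in a control and 12 CPM in a CIAKI library and lay below in the others. Erythroid markers, 4 of 4 in the table, summed to 393 to 1029, 1394 to 1697 and 395 to 1049 CPM, and of these Hbb was high in control 1 at 401 CPM beside 78.0 and 68.6 CPM in the other controls. Podocyte (785 to 854, 508 to 522 and 618 to 788 CPM), endothelial (230 to 265, 160 to 175 and 215 to 270 CPM) and lymphocyte markers (22.6 to 25.2, 5.70 to 9.22 and 13.1 to 23.0 CPM) were lowest in CIAKI kidneys. The part of these cells in the changes described was not tested, beyond ratios to the principal cell, connecting tubule and distal convoluted tubule sums.

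In CIAKI kidneys the beta and gamma subunits of the channel, its receptor Nr3c2 and Wnk1 were lower than in control kidneys, and Nedd4l and Wnk4 were higher. Scnn1a, Sgk1 and Stk39 did not pass the test. The count was 6 of 9 genes called (66.7%), 2 higher and 4 lower, against 41.3% of all 16731 genes tested (20.8% higher, 20.5% lower), in limma on log2(CPM + 1) values with calls at an adjusted p below 0.05. With icariin before the protocol, Scnn1b, Scnn1g and Nr3c2 were higher and Wnk4 was lower than in CIAKI kidneys, 4 of 9 called (44.4%) against 39.4% of all genes (19.2% higher, 20.2% lower). Between icariin and control kidneys limma called 0 of 9, against 0.628% of all genes (0.400% higher, 0.227% lower), and edgeR and DESeq2 called 0 as well. In limma 1 of the 9 (Nedd4l) had an unadjusted p below 0.05 there, beside 1704 of all 16731 genes tested. The first 2 comparisons share the CIAKI libraries, so their opposite signs are not independent of each other. Groups did not overlap for 6, 5 and 2 of the 9 genes in the 3 comparisons, against 53.4%, 50.7% and 19.3% of all genes tested.

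**Figure D1:**
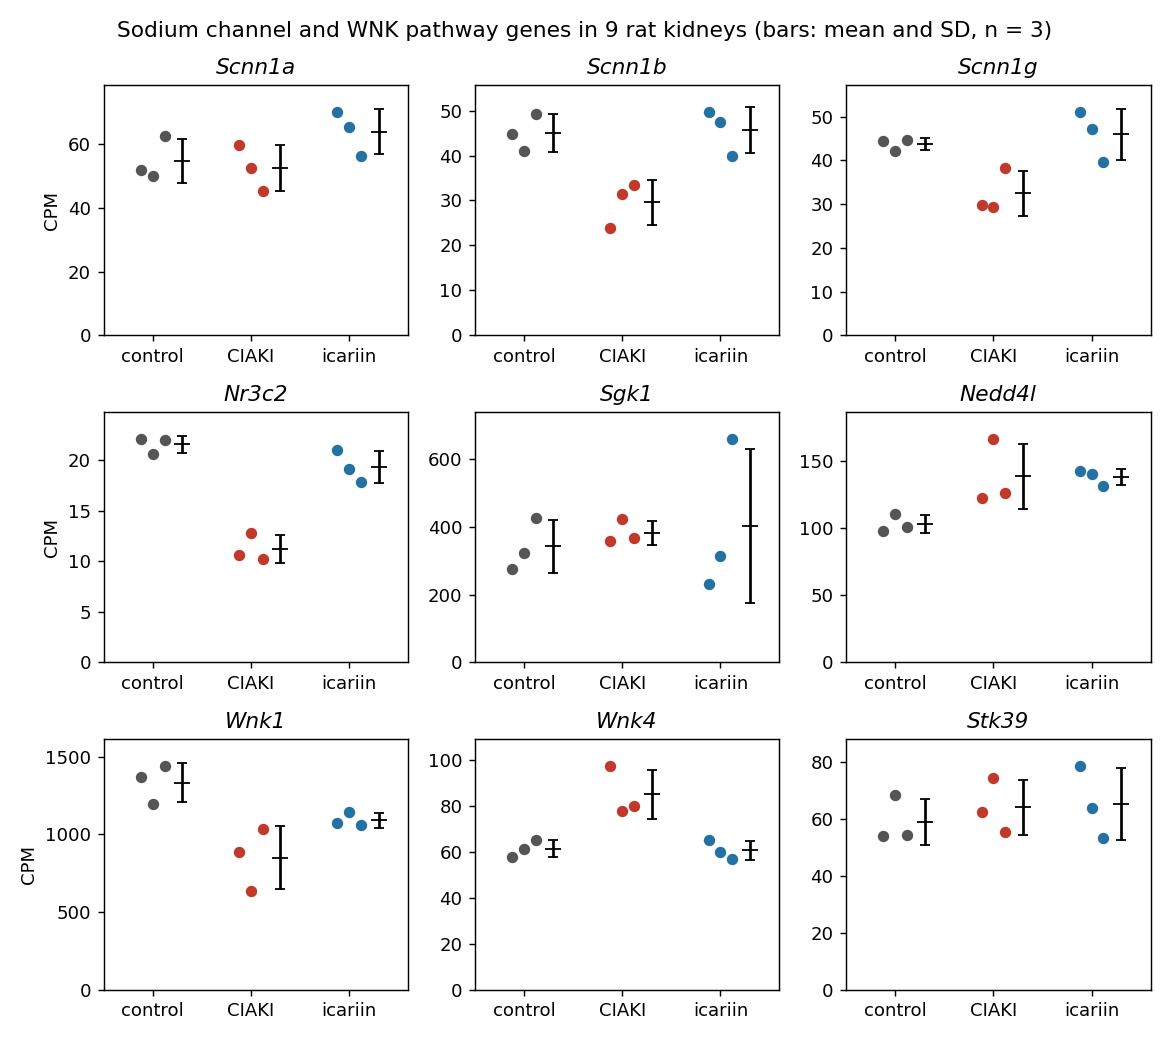
Level of each of the 9 genes in CPM (vertical axis, from 0) in the 3 control, 3 CIAKI and 3 icariin kidneys, 1 point per rat, with mean and SD beside the points. CIAKI points of Scnn1b, Scnn1g, Nr3c2 and Wnk1 all lie below the control points, those of Nedd4l and Wnk4 all lie above, and icariin 3 stands high in Sgk1 at 660 CPM.

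Scnn1a, the alpha subunit that is needed for a conducting channel, stood at 52.0, 49.9 and 62.7 CPM in control, 59.8, 52.5 and 45.3 CPM in CIAKI and 70.2, 65.4 and 56.4 CPM in icariin kidneys. The groups overlapped, and the log2 fold change of CIAKI against control was -0.06 (95% interval -0.35 to 0.23, adjusted p = 0.729). Icariin against CIAKI gave 0.28 (-0.01 to 0.57, adjusted p = 0.112), which passed only with upper-quartile scaling (adjusted p = 0.0439) and quantile normalization (0.0437).

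Scnn1b, the beta subunit, stood at 44.7, 40.9 and 49.4 CPM in control, 23.8, 31.4 and 33.5 CPM in CIAKI and 49.7, 47.5 and 39.8 CPM in icariin kidneys. All CIAKI kidneys lay below every other kidney. The change was -0.60 on the log2 scale (SE 0.14, adjusted p = 0.00795) for CIAKI against control and 0.62 (adjusted p = 0.00736) for icariin against CIAKI. This gene was also in the authors' deposited table of 3975 selected mRNAs, where it stood at 8.21 ± 1.57 FPKM in CIAKI and 13.0 ± 1.32 FPKM in icariin kidneys (SD, n = 3). FPKM adjusts for gene length, and on that scale the only other gene of the set in the table, Nr3c2, was lower, at 3.29 ± 0.424 and 5.78 ± 0.423 FPKM.

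Scnn1g, the gamma subunit, stood at 44.6, 42.2 and 44.7 CPM in control, 29.8, 29.3 and 38.3 CPM in CIAKI and 51.1, 47.1 and 39.6 CPM in icariin kidneys. CIAKI 3 came closest to the other groups, which it did not reach. On the log2 scale the change was -0.43 (SE 0.12, adjusted p = 0.0199) against control and 0.49 (adjusted p = 0.012) for icariin against CIAKI. The first call ended without control 1, control 3, CIAKI 1 or CIAKI 2 (adjusted p = 0.0586, 0.0585, 0.064 and 0.0627).

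ENaC opens fully once proteases cut its extracellular loops. Of 12 genes of the channel and its proteolytic activation 11 were tested, and in CIAKI 2 were higher, 5 lower and 4 not called, with a median log2 fold change of -0.13 against -0.0027 over all genes tested, of which 20.8% were called higher and 20.5% lower. Prss8, which encodes the activating protease prostasin, fell from 265 ± 11.3 to 132 ± 31.2 CPM (-1.02, adjusted p = 0.000612) and stood at 272 ± 15.5 CPM with icariin (1.06 against CIAKI, adjusted p = 0.000593). Serpine2, the protease inhibitor nexin 1, fell by 1.59 on the log2 scale. Spint1 and Spint2, the inhibitors HAI-1 and HAI-2 of such proteases, rose by 0.565 and 0.39 (adjusted p = 0.000818 and 0.0146). Icariin kidneys were higher than CIAKI kidneys in 3 of the 11 genes and lower in 1, Spint1 (-0.42), a share of calls near the 39.4% of all genes. Serpine2 (0.62, adjusted p = 0.0659) did not pass there, though it did with 5 of 20 alternatives.

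Nr3c2, the mineralocorticoid receptor, stood at 22.1, 20.6 and 22.0 CPM in control, 10.7, 12.8 and 10.3 CPM in CIAKI and 21.0, 19.1 and 17.9 CPM in icariin kidneys. CIAKI kidneys lay far below both other groups, which overlapped each other. The log2 fold change against control was -0.89 (SE 0.11, adjusted p = 0.00037), a level 0.541 times that of control on the log2(CPM + 1) scale. It was 0.73 (adjusted p = 0.00105) for icariin against CIAKI and -0.15 (-0.40 to 0.09, adjusted p = 0.736) for icariin against control. Both calls held with all 20 alternatives.

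In the list of the receptor and genes it or related steroid receptors induce, 15 of 16 genes were tested. In CIAKI 9 of them were higher and 1, Nr3c2 itself, was lower, with a median of 0.62, where 20.8% of all genes were called higher and 20.5% lower. Zbtb16, a zinc finger repressor induced by steroids, went from 1.52 ± 0.811 to 19.8 ± 9.35 CPM (log2 fold change 3.01, adjusted p = 0.000276). Fkbp5, a co-chaperone of steroid receptors, went from 29.7 ± 0.937 to 193 ± 35.9 CPM, and Tsc22d3 (GILZ), which favours ENaC at the membrane, from 53.1 ± 10.1 to 109 ± 8.04 CPM. Tsc22d3 stayed at 108 ± 22.0 CPM with icariin. Hsd11b2, the enzyme that shields the receptor from glucocorticoids, stood at 241 ± 9.52, 198 ± 60.2 and 233 ± 28.9 CPM in the 3 groups and did not pass (adjusted p = 0.213 for CIAKI against control), but did without CIAKI 3. The glucocorticoid receptor gene Nr3c1 had no row under that symbol and was not analysed here.

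In the same list icariin kidneys were lower than CIAKI kidneys in 5 genes and higher in 2, Nr3c2 and Usp2 (39.4% of all genes called). Against control, 5 of the 15 genes were higher in icariin kidneys and none was lower in limma, where 0.628% of all genes were called. These were Fkbp5 (1.73), Zbtb16 (2.85), Usp2 (1.54), Tsc22d3 (1.01) and Per1 (0.74), of which Per1 was picked out after its values were seen. The count was 3 with edgeR on recovered reads, without the filter, and without control 1, control 2 or any icariin library, and the Tsc22d3 call ended with each of these settings (adjusted p up to 0.13). The Per1 call (adjusted p = 0.0484) ended with 15 of 20 alternatives (up to 0.175), among them leaving out any control library, any icariin library or CIAKI 2.

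Sgk1, the aldosterone-induced kinase, stood at 275, 324 and 428 CPM in control, 359, 424 and 366 CPM in CIAKI and 230.2, 316 and 660 CPM in icariin kidneys. The icariin group held both the lowest and the highest kidney of all 9. CIAKI against control gave a log2 fold change of 0.18 (95% interval -0.56 to 0.92, adjusted p = 0.694) and icariin against CIAKI -0.07 (-0.81 to 0.67, adjusted p = 0.881), so changes of up to 0.92 lie within the interval. Without icariin 3 the latter was -0.50 and still not called.

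Of 11 SGK kinases and their activators 3 were higher and 1 was lower in CIAKI (median 0.11), a share of calls not above the 41.3% of all genes. Sgk2, a related kinase, fell from 49.2 ± 8.12 to 25.5 ± 4.6 CPM (log2 fold change -0.93, adjusted p = 0.00132) and stood at 44.1 ± 1.42 CPM with icariin. Those that rose included Ndrg1, whose product SGK kinases phosphorylate (0.84), and Rictor (0.28), which encodes a subunit of the SGK-activating complex mTORC2. The Rictor call ended with 7 of 20 alternatives (adjusted p up to 0.103), among them leaving out control 1, control 2, CIAKI 1 or CIAKI 2. Icariin against CIAKI called 2 higher and 3 lower, where 19.2% of all genes were called higher and 20.2% lower. The 2 higher were Sgk2 (0.78) and Mtor (0.24, lost without icariin 2 at an adjusted p of 0.0581). The count of 5 called, beside 39.4% of all genes, was 3 with upper-quartile scaling and without icariin 2.

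Nedd4l, the ligase NEDD4-2, stood at 97.8, 111 and 101 CPM in control, 123, 167 and 127 CPM in CIAKI and 143, 141 and 131 CPM in icariin kidneys. Every CIAKI and every icariin kidney lay above every control kidney. The difference was 0.41 on the log2 scale (SE 0.11, adjusted p = 0.017) for CIAKI against control, 0.01 (95% interval -0.25 to 0.26, adjusted p = 0.959) for icariin against CIAKI and 0.42 (0.17 to 0.68, adjusted p = 0.18) for icariin against control. The first call ended without control 1 or control 3 (adjusted p = 0.0597 and 0.0516), and the last value passed without CIAKI 2 (0.0444). Its icariin mean of 138 ± 6.11 CPM thus stood beside a CIAKI mean of 139 ± 24.3 CPM (SD, n = 3).

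Of 11 genes of the ubiquitin control of ENaC 6 were higher and 2 lower in CIAKI (median 0.28), where 20.8% of all genes were called higher and 20.5% lower. Nedd4, the ligase most like Nedd4l, rose by 0.32 (adjusted p = 0.00712), and the 14-3-3 genes Ywhae and Ywhaz, whose products bind phosphorylated NEDD4-2, rose by 0.42 and 0.28. The caveolin gene Cav1 (-0.57) and the ligase gene Wwp2 (-0.37) fell. With icariin, Nedd4, Ywhae and Ywhaz were lower than in CIAKI kidneys (-0.40, -0.39 and -0.355). Usp2, a deubiquitinase that counters NEDD4-2, was higher again with icariin. It stood at 26.8 ± 2.25 CPM in control, 42.9 ± 8.99 CPM in CIAKI and 79.8 ± 12.03 CPM in icariin kidneys (0.65, adjusted p = 0.00935, for CIAKI against control and 0.89, adjusted p = 0.00222, for icariin against CIAKI).

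**Figure D2:**
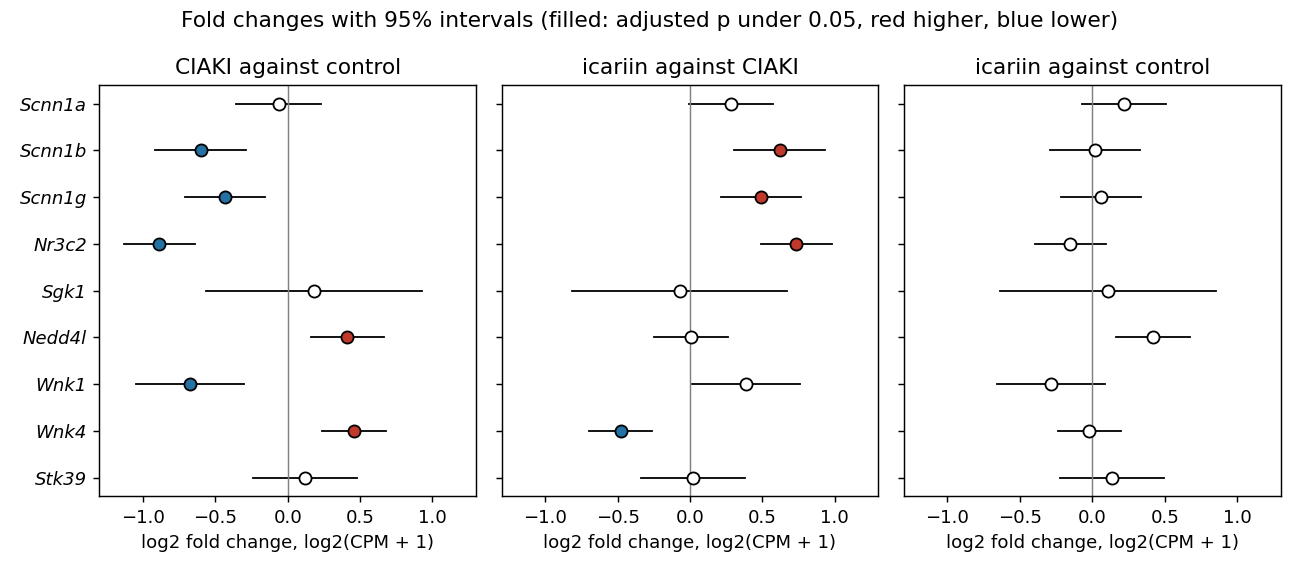
Log2 fold change of the 9 genes on the log2(CPM + 1) scale (horizontal axis) with its 95% interval for the 3 comparisons, filled where the adjusted p was below 0.05. Scnn1b, Scnn1g and Nr3c2 lie to the left in CIAKI against control (-0.60, -0.43 and -0.89) and to the right in icariin against CIAKI, while Nedd4l lies at 0.41 and then at 0.01.

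Wnk1 stood at 1368, 1193.5 and 1439.9 CPM in control, 884, 633 and 1036 CPM in CIAKI and 1071, 1147 and 1058.5 CPM in icariin kidneys. Reads of the full-length kinase and of the short kidney-specific transcript of Wnk1, which lacks the kinase domain, are summed in this value. The 3 groups did not overlap, with icariin kidneys between the others. The log2 fold change against control was -0.67 (SE 0.17, adjusted p = 0.0107). Icariin against CIAKI gave 0.39 (95% interval 0.01 to 0.76, adjusted p = 0.0918), which passed without CIAKI 3 (0.0235), and icariin against control gave -0.28 (-0.66 to 0.09, adjusted p = 0.64).

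Wnk4, the WNK kinase best known from the distal convoluted tubule, stood at 57.8, 61.1 and 65.1 CPM in control, 97.2, 77.9 and 80.0 CPM in CIAKI and 65.1, 59.7 and 56.9 CPM in icariin kidneys. All CIAKI kidneys lay above every other kidney. The change was 0.46 on the log2 scale (SE 0.10, adjusted p = 0.00537) against control, -0.48 (adjusted p = 0.00472) for icariin against CIAKI and -0.02 (95% interval -0.24 to 0.20) for icariin against control. The Wnk4 rise and the Wnk1 decrease kept their calls with all 20 alternatives.

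Stk39 (SPAK) stood at 54.1, 68.3 and 54.4 CPM in control, 62.6, 74.5 and 55.4 CPM in CIAKI and 78.6, 64.0 and 53.5 CPM in icariin kidneys. The groups overlapped in full, at 0.12 (95% interval -0.24 to 0.48, adjusted p = 0.586) for CIAKI against control and 0.02 (-0.34 to 0.38) for icariin against CIAKI. Its sister kinase gene Oxsr1 rose from 78.7 ± 2.28 to 121 ± 9.49 CPM (0.61, adjusted p = 0.000543) and stood at 75.1 ± 5.8 CPM with icariin (-0.68, adjusted p = 0.000388). Wnk3, a WNK kinase of low level here, rose from 1.44 ± 0.26 to 3.03 ± 0.585 CPM, and Cab39, which encodes the scaffold MO25 of both sister kinases, rose by 0.25, a call that ended with upper-quartile scaling (adjusted p = 0.054). Of the 7 tested genes of the cascade, 8 listed, 4 were higher and 1, Wnk1, was lower in CIAKI, and 4 were lower and none higher in icariin than in CIAKI kidneys. Of all genes 41.3% and 39.4% were called in these comparisons.

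Although Klhl3 had no row, 7 of the other genes of its ligase were tested, and all 7 were higher in CIAKI kidneys (median 0.47), where 20.8% of all genes were. All 7 were lower in icariin than in CIAKI kidneys (median -0.43), against 20.2% of all genes. Cul3, the scaffold, went from 153 ± 8.06 to 195 ± 8.54 and back to 151 ± 2.39 CPM (0.35 and -0.36). Nedd8, the modifier that activates cullins, its conjugating enzyme gene Ube2m and Cops5, the subunit that removes it, rose by 0.47, 0.47 and 0.34. Klhl2, the closest relative of Klhl3 and also an adaptor for WNK kinases, rose from 38.3 ± 4.61 to 53.8 ± 7.4 CPM (0.48, adjusted p = 0.014), a gene named after its values were seen whose call ended without control 1 or control 3 (up to 0.0522). The calls of Cand1, a cullin exchange factor also named after its values were seen, were the weakest, at 0.21 (adjusted p = 0.0388) and -0.22 (adjusted p = 0.0349). They ended with 15 and 13 of 20 alternatives (adjusted p up to 0.141 and 0.11), in both comparisons among them leaving out any control or icariin library, CIAKI 1 or CIAKI 2. The Klhl2 call in icariin against CIAKI had adjusted p up to 0.0712 and was lost on leaving out icariin 1, icariin 3, CIAKI 1 or CIAKI 3. Without 1 library, 5 to 7 of the 7 were called in CIAKI against control and 5 to 6 in icariin against CIAKI. Most of these genes serve many cullin ligases beside that of Klhl3.

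Among the cotransporters that SPAK and OXSR1 act on, Slc12a3 fell from 709 ± 76.7 to 517 ± 18.5 CPM in CIAKI (log2 fold change -0.45, adjusted p = 0.00868) and stood at 536.5 ± 59.9 CPM with icariin (0.05 against CIAKI, 95% interval -0.19 to 0.29). It is also 1 of the 6 distal convoluted tubule markers. Slc12a1, the target of furosemide in the thick ascending limb, varied widely, at 1483 ± 493, 2170 ± 650 and 1738 ± 371 CPM. In CIAKI against control it did not pass (adjusted p = 0.141), but did with a replicate block (0.0438). Slc12a2, the widely expressed cotransporter NKCC1, rose from 78.3 ± 3.46 to 132 ± 9.6 CPM (0.75, adjusted p = 0.000116) and stood at 86.3 ± 2.69 CPM with icariin. The potassium-chloride cotransporter gene Slc12a7 fell (-0.29), a call that ended without control 1 (adjusted p = 0.0522). In all, 1 of 6 tested genes of this family was higher and 3 were lower in CIAKI, where 20.8% of all genes were called higher and 20.5% lower.

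Of 11 tested potassium and chloride channel genes of the distal nephron 2 were higher, 2 lower and 7 not called in CIAKI (median -0.03), a share of calls below the 41.3% of all genes. Kcnj10, the basolateral potassium channel of the distal convoluted tubule, fell from 28.5 ± 2.1 to 16.2 ± 1.24 CPM (-0.78, adjusted p = 0.00305), and Bsnd (barttin), the subunit of the ClC-K channels, fell by 0.60 on the log2 scale. Kcnk1 (1.02) and Kcnma1 (0.62), the large-conductance potassium channel, rose, the latter not without control 1 or CIAKI 2 (adjusted p up to 0.06). Icariin against CIAKI also called 4 of these genes (39.4% of all genes were called), a count that fell to 2 without the filter on low values or without control 3, CIAKI 2, CIAKI 3 or icariin 1 and to 1 without icariin 2.

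**Figure D3:**
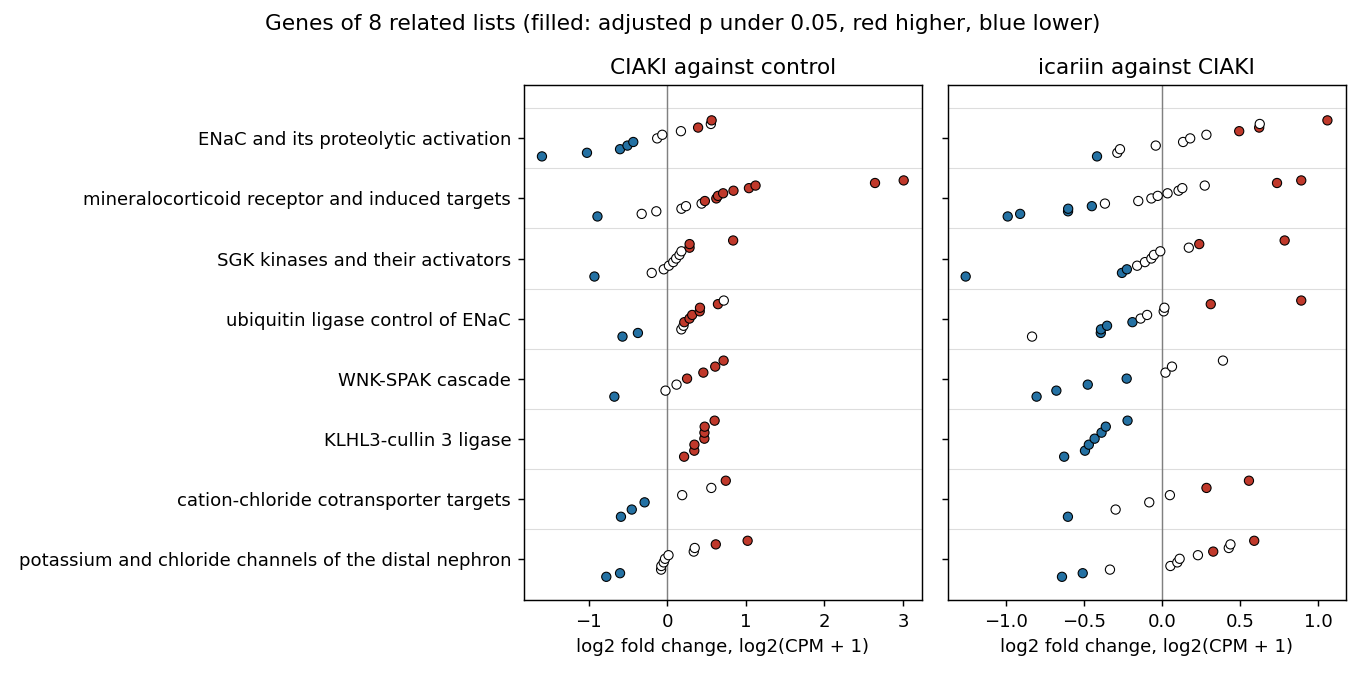
Log2 fold change of every tested gene of 8 related lists (horizontal axis, log2(CPM + 1) scale) in CIAKI against control and in icariin against CIAKI, 1 point per gene, filled where the adjusted p was below 0.05. The 7 genes of the KLHL3-cullin 3 list lie at a median of 0.47 in the first and -0.43 in the second comparison, which share the CIAKI libraries.

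Apart from the 1 CPM added to each value, ratios within a library do not depend on scaling between libraries. In all, 8 of them were tested with an exact permutation test of the spread between the 3 groups (1680 assignments, smallest possible p = 0.00357), adjusted over the 8. Each p is for the spread over all 3 groups and not for any pair of them. The log2 ratio of Wnk4 to Wnk1 was -4.42 ± 0.139 in control, -3.29 ± 0.35 in CIAKI and -4.15 ± 0.117 in icariin kidneys (SD, n = 3), and CIAKI minus control was 1.13. The spread over the 3 groups gave an exact permutation p of 0.00357, the smallest possible (adjusted p = 0.0143). The 3 groups did not overlap in this ratio. The ratio of Stk39 to Oxsr1 was -0.42 ± 0.15, -0.91 ± 0.166 and -0.21 ± 0.172 (exact permutation adjusted p = 0.0286), with CIAKI kidneys below all others.

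The ratio of Scnn1b to Scnn1a was -0.21, -0.28 and -0.34 in control, -1.29, -0.73 and -0.43 in CIAKI and -0.49, -0.45 and -0.49 in icariin kidneys. It was lower in every CIAKI and every icariin kidney than in any control, and the spread over the 3 groups missed the threshold after adjustment (exact permutation p = 0.05, adjusted p = 0.08). That spread passed without CIAKI 1 (adjusted p = 0.0343), where CIAKI minus control was -0.30, and without CIAKI 3 (adjusted p = 0.00952), where it was -0.73. For Scnn1g to Scnn1a CIAKI minus control was -0.37 and the 3-group exact permutation adjusted p was 0.243, or -0.59 and 0.0171 without CIAKI 3. Scnn1g to Scnn1b and Sgk1 to Nedd4l gave adjusted p-values of 0.363 and 0.761 in the same exact permutation test, and the latter passed without icariin 3 (0.0286), with CIAKI minus control as before at -0.23.

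Relative to the summed principal cell markers, the summed ENaC genes stood at -2.39 ± 0.0741 in control, -3.20 ± 0.339 in CIAKI and -2.88 ± 0.0594 in icariin kidneys (exact permutation adjusted p = 0.0286). Both treated groups lay below all control kidneys, and the marker sum itself, led by Aqp2, was higher in them. That sum rose in CIAKI through the water channel genes, while Avpr2 and Kcne1 fell and the median log2 fold change of the 10 markers was -0.12. Relative to the summed connecting tubule markers, a comparison added after the data were seen, the ENaC genes stood the other way, at -2.47 ± 0.102, -1.50 ± 0.168 and -1.26 ± 0.215 (exact permutation adjusted p = 0.0214). The direction of the ENaC genes relative to these marker sums thus turned with the list used. Calb1 and Slc8a1 made up most of the connecting tubule sum, and their means fell from 566 to 219 and from 195 to 71.2 CPM in CIAKI kidneys. Trpv5 (34.6 and 35.3 CPM in control and CIAKI kidneys) and S100g (1.05 and 1.68 CPM) were not called. Wnk4 relative to the summed distal convoluted tubule markers stood at -3.80 ± 0.0832, -2.89 ± 0.191 and -3.47 ± 0.105 (exact permutation adjusted p = 0.0143), with no overlap between any of the 3 groups. Most of that sum was Slc12a3, at a mean of 709 of 869 CPM in control kidneys, so the ratio mainly set Wnk4 against Slc12a3. In CIAKI against control Cnnm2, Emx1 and Sall3 fell as well (-0.85, -0.80 and -0.79), while Trpm6 was not called (0.09). With 8 libraries the adjusted exact p of the ratios that passed rose to 0.0571 without control 1, 2 or 3 for the ENaC ratio, without control 1 or 3 for Wnk4 to Wnk1 and for Stk39 to Oxsr1, and without control 3 for Wnk4 to its segment markers.

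**Figure D4:**
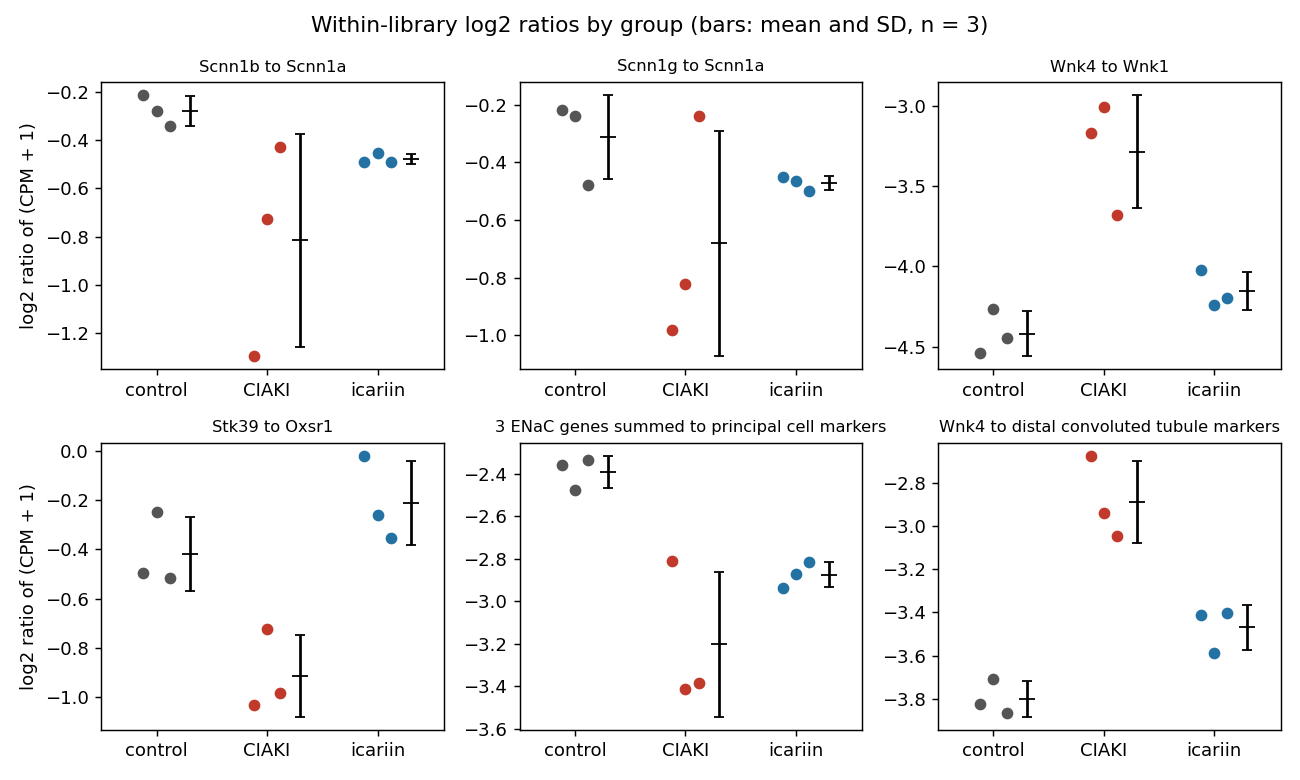
Log2 ratio of (CPM + 1) values within each library (vertical axis) for 6 of the 8 ratios, 1 point per kidney, with mean and SD for the 3 groups. Wnk4 to Wnk1 is highest in CIAKI kidneys (mean -3.29), and Scnn1b to Scnn1a spreads from -1.29 to -0.43 in CIAKI kidneys against -0.34 to -0.21 in control kidneys.

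The 3 genes of the set whose group means ranged most widely were Nr3c2, Wnk1 and Scnn1b. Among 13423 tested Ensembl genes with a symbol, the profiles nearest to each over the 9 libraries, by root-mean-square difference of centred log2(CPM + 1) values, were as follows. Akna, Abcc9 and Tango2 lay nearest to Nr3c2 (0.0767, 0.0813 and 0.0824), and Abcc9 went from 42.0 to 21.4 and 37.2 CPM over control, CIAKI and icariin means. Ablim3, Meis2 and Fzd1 lay nearest to Wnk1 (0.0993, 0.0995 and 0.101), and Robo1, Myo10 and Mn1 nearest to Scnn1b (0.0494, 0.0594 and 0.0772). None of these belongs to the lists used here.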

How the data were processed

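RNA of 9 rat kidneys was sequenced from Illumina TruSeq libraries, per the labels' protocols. The submitters' processing notes name Bowtie 0.12.2 and mm8, a mouse build, although the table lists rat Ensembl identifiers. Which reference was used is thus not settled. Counter, strand setting and handling of shared reads are not stated, so genes with near-identical copies (such as Nedd8 and the Ywha genes) and overlapping genes are uncertain. The main table was deposited in CPM. Its values were whole multiples of 1 step per library (100% to a tolerance of 0.1). Reads recovered this way matched each of the 23850 deposited counts in the table of selected mRNAs. The deposited FPKM values of that table are the authors' own, and their computation is not stated.

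The test was limma 3.58.1 (R 4.3.3) with trend on log2(CPM + 1), all 9 libraries, group as the factor, on the 16731 features reaching 1 CPM in 3 or more libraries, two-sided, Benjamini-Hochberg adjusted over all features within a comparison, called below 0.05. Fold changes on this scale understate changes of low genes. Alternatives were other pseudocounts, filters and scalings, edgeR 4.0.16 and DESeq2 1.42.0 on recovered reads, the compared groups alone, a replicate block and leaving out each library. Scripts were tested on simulated data. The planned ratio of Klhl3 to Wnk4 was left out because Klhl3 had no row.

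The genes, lists and ratios were chosen with earlier results of these data known. Named genes are the 9 with a row, up to 4 genes of each list called in CIAKI against control with the smallest p, list genes called against the majority of their list, a few fixed genes (Slc12a3, Slc12a1, Hsd11b2, Prss8, Tsc22d3, Oxsr1, Cab39, Cul3 and Aqp2), and the 3 nearest profiles of 3 genes. Some list genes that meet this rule are not reported here. RefSeq held promoter windows for 7 of the 9 genes.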

Additional observations from a re-analysis of the deposited data

How the results depend on the processing

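Over 20 alternatives, the 27 fold changes of the 9 genes gave 540 values, of which 506 kept direction and side of the threshold, 6 lost a call, 4 gained 1 and 24 changed sign, none of the latter for a called value. In icariin against CIAKI, edgeR and DESeq2 gave 0.093 and 0.092 for Sgk1 and -0.0042 and -0.0094 for Nedd4l, opposite in sign to limma. Leaving out 1 library gave these ranges of log2 fold change for values that changed sign: Scnn1a -0.16 to 0.037 in CIAKI against control, Sgk1 -0.50 to 0.26, Nedd4l -0.072 to 0.15 and Stk39 -0.12 to 0.15 in icariin against CIAKI, and Scnn1b -0.045 to 0.11, Scnn1g -0.019 to 0.16, Sgk1 -0.32 to 0.44, Wnk4 -0.071 to 0.024 and Stk39 -0.0020 to 0.27 in icariin against control. The genes called higher in CIAKI numbered 1 to 2 of the 9 without 1 library, and 0 to 1 in icariin against control. Over all genes, icariin against control called 105 genes, 52 without the filter, 524 with DESeq2 and 30 to 130 without 1 library. Without 1 library the difference of CIAKI minus control ranged from -0.73 to -0.30 for Scnn1b to Scnn1a, -0.59 to -0.22 for Scnn1g to Scnn1a, 0.993 to 1.33 for Wnk4 to Wnk1, -0.59 to -0.41 for Stk39 to Oxsr1, -0.34 to -0.046 for Sgk1 to Nedd4l, -1.01 to -0.71 for ENaC genes to principal cell markers and 0.81 to 0.993 for Wnk4 to distal convoluted tubule markers. With connecting tubule in place of principal cell markers, chosen after seeing the data, the ENaC difference reversed to 0.97 (adjusted p = 0.0214). The causes were not tested. Deviations of libraries of the same number were weakly correlated (-0.035 to 0.081 over 9 pairs), and those of different number ranged from -0.102 to 0.036. Such low values cannot tell whether the numbers pair the rats, which is not settled. A replicate block left 6678, 6314 and 73 genes called in the 3 comparisons and changed no call among the 9 genes. The lowest read count of any of the 9 genes in a library was 662.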
